A study of Mus musculus with 20 samples.

Results

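Doc2g, Tbx21, Eomes, Cdhr1, Shisa3, Th and Trh are genes known from the mouse olfactory bulb, and they were read by name from a table of gene counts of mouse frontal cortex. They make up 7 of the 25965 rows of that table, and all 7 passed the filter on low counts that left 16690 genes. The study measured polyadenylated RNA by sequencing of stranded libraries from frontal cortex of mice aged 5 months on a C57BL/6 background. Tardbp encodes TDP-43, an RNA-binding protein, and the Q331K change was placed in the mouse's own gene by knock-in, with no transgene. The groups were 8 homozygous libraries (Q331K/Q331K), 6 heterozygous libraries (Q331K/+) and 6 wild-type libraries (+/+), named here by genotype and the replicate number of the labels. The labels do not say whether the libraries of a genotype came from separate animals, and a p-value here reflects only how far these samples spread, which may be technical.

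The olfactory bulb lies in front of the frontal cortex and receives the axons of the sensory neurons of the nose in round structures called glomeruli. Its output cells, the mitral and tufted cells, are glutamatergic and send their axons to the olfactory cortex, while periglomerular and granule cells are local inhibitory neurons. Tbx21 and Eomes are T-box transcription factors of mitral and tufted cells, Cdhr1 is a cadherin-related membrane protein found in the same cells, and Doc2g encodes a protein with double C2 domains that marks them. Shisa3 encodes a protein whose frog relative holds back Wnt and FGF receptors inside the cell. Th encodes tyrosine hydroxylase, the rate-limiting enzyme of dopamine synthesis, which periglomerular neurons of the bulb express, and Trh encodes the precursor of thyrotropin-releasing hormone, best known from the hypothalamus. No olfactory bulb library was analysed here, so the name of the group rests on what is known of these genes, and frontal cortex may express some of them itself.

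In the deposited coordinates (GRCm38), the minus strand holds Tbx21 (chromosome 11, 97098071 to 97115331), Cdhr1 (chromosome 14, 37077850 to 37098311), Th (chromosome 7, 142892752 to 142931128) and Trh (chromosome 6, 92242061 to 92244650). The plus strand holds Eomes (chromosome 9, 118478212 to 118486132), Doc2g (chromosome 19, 4003321 to 4007005) and Shisa3 (chromosome 5, 67607883 to 67623552). No chromosome held more than 1 of the 7 genes. In GENCODE M21, 1926 of the 3035 exon bases of Doc2g (63.5%) are shared with a gene on the same strand, named Gm49405 there. The deposited table names this gene Nudt8, so by M21 reads of Doc2g and Nudt8 cannot be told apart over those bases. Whether the annotation behind the deposited counts gives them the same shared exons is not known here. Shisa3 shares 138 exon bases (2.90%) with Atp8a1 and Eomes 118 (2.84%) with an antisense transcript, both on the opposite strand.

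The sequences before the start sites show how unlike each other the genes are in base composition, although their levels moved together across libraries. The 250 bases before the RefSeq start (GRCm38.p6) are given 5′ to 3′ on the gene's own strand for 4 of the genes. Capitals mark the cyclic AMP response element TGACGTCA in Th and each CG in Eomes and Shisa3, and Doc2g holds no CG. The windows are chr7:142899996-142900245 on the minus strand for Th, chr9:118477939-118478188 on the plus strand for Eomes, chr19:4003135-4003384 on the plus strand for Doc2g and chr5:67607633-67607882 on the plus strand for Shisa3. The Doc2g window reaches into the deposited gene, whose start lies upstream of the RefSeq start, and the Th window lies inside the deposited gene for the same reason.
Th: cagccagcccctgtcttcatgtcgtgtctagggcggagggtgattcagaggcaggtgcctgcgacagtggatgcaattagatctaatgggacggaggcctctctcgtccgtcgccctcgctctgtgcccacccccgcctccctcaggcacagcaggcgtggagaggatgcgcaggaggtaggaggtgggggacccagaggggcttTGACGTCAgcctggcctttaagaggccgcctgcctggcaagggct
Eomes: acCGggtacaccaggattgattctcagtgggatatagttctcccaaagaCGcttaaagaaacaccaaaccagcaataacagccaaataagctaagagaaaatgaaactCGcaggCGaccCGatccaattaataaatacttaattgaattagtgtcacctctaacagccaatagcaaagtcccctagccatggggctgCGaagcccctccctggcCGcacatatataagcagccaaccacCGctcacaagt
Doc2g: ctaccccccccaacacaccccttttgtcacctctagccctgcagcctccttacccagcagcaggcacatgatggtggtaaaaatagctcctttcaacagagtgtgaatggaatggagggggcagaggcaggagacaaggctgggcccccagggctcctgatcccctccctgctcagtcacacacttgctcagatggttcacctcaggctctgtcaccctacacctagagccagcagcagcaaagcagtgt
Shisa3: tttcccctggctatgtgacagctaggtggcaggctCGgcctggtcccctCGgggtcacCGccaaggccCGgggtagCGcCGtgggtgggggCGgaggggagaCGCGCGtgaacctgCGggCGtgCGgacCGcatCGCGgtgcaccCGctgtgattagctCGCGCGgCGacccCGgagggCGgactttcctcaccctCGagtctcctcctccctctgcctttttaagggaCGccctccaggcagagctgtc
The 4 windows hold 13 CG in Th, 8 in Eomes, 0 in Doc2g and 25 in Shisa3, beside 16 in Tbx21, 6 in Cdhr1 and 25 in Trh and a median of 6 over all promoters of the table. The share of G and C was lowest in Eomes, at 46.4%, and highest in Shisa3, at 69.6%. The letters TGACGTCA, searched on both strands, stand in Th from base 45 to base 38 before the start, and in 508 of 32851 windows of the same length (1.55%). No other window of the 7 genes held them. The T-box letters AGGTGTGA and the letters AAAGGTCA of the NBRE, the site of NR4A receptors, were searched in the same way, were found in 1.12% and 1.34% of all windows, and are not in the windows of the 7 genes.

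Markers of cortical neurons were high in every library, and Tardbp, the edited gene, was read in all of them. Totals ran from 69312426 to 105412832 counts in homozygous libraries, from 61282647 to 111440766 in heterozygous and from 75168829 to 96821696 in wild-type libraries. Slc17a7, the vesicular glutamate transporter of cortical excitatory neurons, lay between 1296 and 1493 CPM in all 20 libraries, and Neurod6, a transcription factor of cortical excitatory neurons, between 98.0 and 134 CPM. CPM are counts relative to library size, scaled with TMM factors. Tardbp lay between 234 and 264 CPM in homozygous libraries, between 215 and 235 CPM in heterozygous and between 210.0 and 227 CPM in wild-type libraries. Homozygous replicates 2, 5 and 8 stand apart in the genes described here. Heterozygous replicate 1 stands apart in a list of striatal neuron genes, with a mean z score of 3.27. In the 7 genes it did not stand apart. Its score there was -0.563 on the same scale, where heterozygous libraries ran from -0.784 to -0.0499.

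The 7 genes had their highest levels in the same few homozygous libraries, and the other homozygous libraries lay at the level of the heterozygous and wild-type ones. Their summed level was 45.3 to 89.2 CPM in homozygous replicates 2, 5 and 8, 9.98 to 20.2 CPM in the 5 other homozygous libraries, 9.86 to 14.9 CPM in heterozygous libraries and 9.94 to 24.9 CPM in wild-type libraries. Homozygous replicates 8, 5 and 2, in that order, were the 3 highest of all 20 libraries for 5 of the 7 genes. For Th and Trh wild-type replicate 3 lay above homozygous replicate 2.

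**Figure D1:**
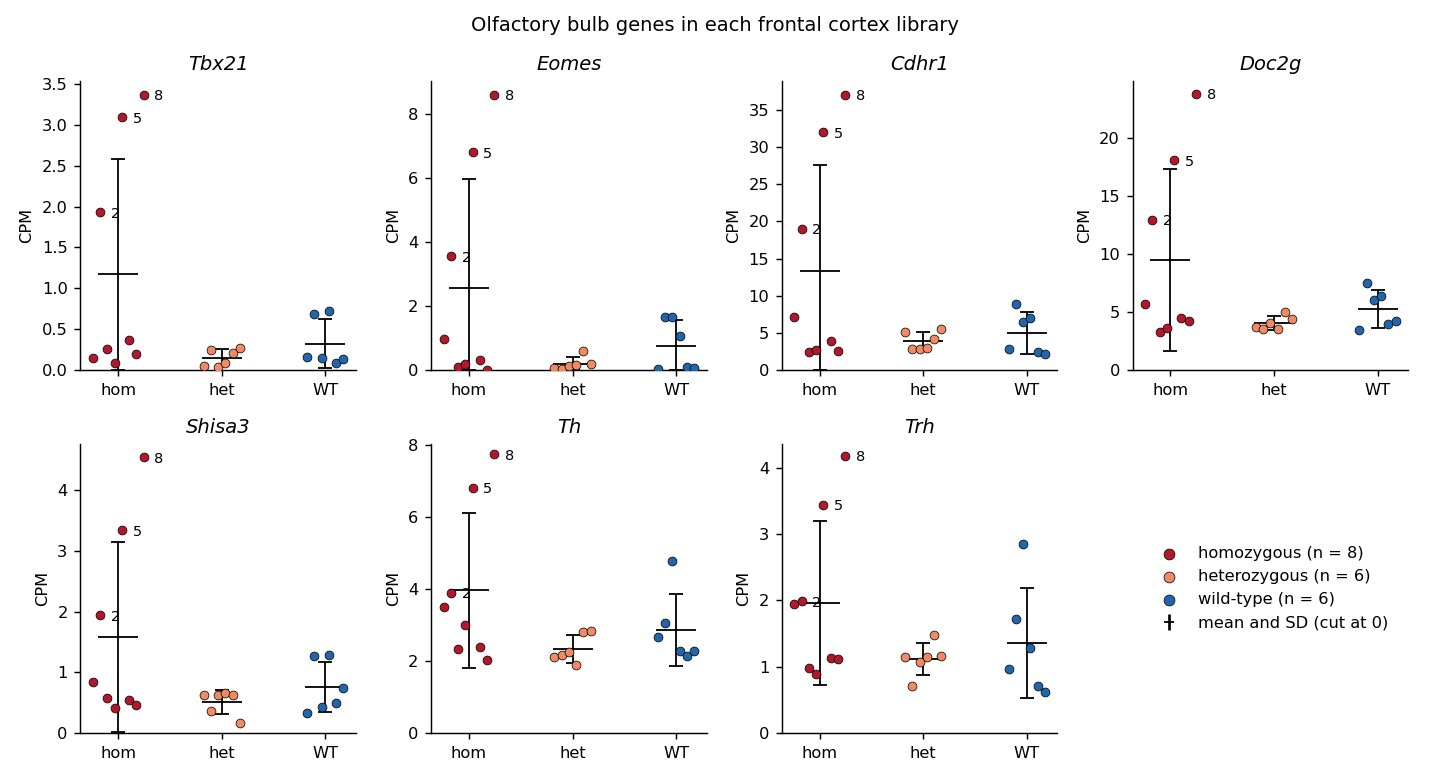
Level of each of the 7 genes in CPM (vertical axis) in every library of the homozygous (hom, n = 8), heterozygous (het, n = 6) and wild-type (WT, n = 6) groups. Points are libraries, horizontal marks the group mean and bars the SD. The numbers 2, 5 and 8 mark the homozygous replicates that hold the highest values, 8.61 CPM for Eomes and 37.0 CPM for Cdhr1 in replicate 8.

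The T-box factors varied most. Eomes had 0.968, 3.56, 0.116, 0.185, 6.82, 0.323, 0 and 8.61 CPM in homozygous replicates 1 to 8. It had 0.0802, 0.0336, 0.120, 0.178, 0.604 and 0.198 CPM in heterozygous replicates 1 to 6, and 0.0416, 1.67, 1.66, 1.06, 0.0859 and 0.0766 CPM in wild-type replicates 1 to 6. The groups overlapped, and within the homozygous group the range ran from a library with 0 counts, which allows up to 0.0289 CPM (3 counts, counting error only), to a library with 742 counts. The wild-type group also fell apart into 3 libraries above 1 CPM and 3 below 0.1 CPM, and all heterozygous libraries lay below those 3 higher wild-type ones.

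Tbx21 had 0.145, 1.93, 0.264, 0.0852, 3.09, 0.373, 0.202 and 3.37 CPM in homozygous replicates 1 to 8. It had 0.0481, 0.247, 0.0400, 0.0890, 0.209 and 0.277 CPM in heterozygous and 0.166, 0.692, 0.148, 0.724, 0.0859 and 0.142 CPM in wild-type replicates 1 to 6. The same 3 homozygous libraries were high, but of the 3 wild-type libraries with raised Eomes only replicates 2 and 4 were also high in Tbx21. The 5 other homozygous libraries lay within the range of the wild-type group or just below it.

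Cdhr1, Doc2g and Shisa3, the other genes of the output cells, were also highest in homozygous replicates 8, 5 and 2. Cdhr1 had 7.16, 19.0, 2.42, 2.66, 31.9, 3.94, 2.51 and 37.0 CPM in homozygous replicates 1 to 8. It had 5.16, 2.81, 2.82, 3.04, 4.14 and 5.60 CPM in heterozygous and 2.88, 8.95, 6.49, 7.03, 2.44 and 2.19 CPM in wild-type replicates 1 to 6. No library had less than 187 counts of Cdhr1, so unlike Eomes it was read in each of them.

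Doc2g had 5.67, 13.0, 3.28, 3.67, 18.1, 4.48, 4.28 and 23.8 CPM in homozygous replicates 1 to 8. It had 3.71, 3.54, 4.02, 3.56, 5.03 and 4.41 CPM in heterozygous and 3.46, 7.50, 6.07, 6.36, 3.99 and 4.21 CPM in wild-type replicates 1 to 6. Wild-type replicates 2, 3 and 4 again lay above every heterozygous library. Nudt8, which shares exons with Doc2g in GENCODE M21, had 15.4, 20.8 and 25.4 CPM in homozygous replicates 2, 5 and 8 and at most 11.8 CPM in the other 17 libraries. How the reads of the shared exons were split between them is not given in the sources used here.

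Shisa3 had 0.847, 1.94, 0.580, 0.412, 3.34, 0.535, 0.453 and 4.54 CPM in homozygous replicates 1 to 8. It had 0.626, 0.359, 0.626, 0.658, 0.627 and 0.159 CPM in heterozygous and 0.333, 1.26, 0.433, 1.28, 0.491 and 0.744 CPM in wild-type replicates 1 to 6. Wild-type replicates 2 and 4 were high, as for Tbx21, and replicate 3 was not. Atp8a1, which overlaps Shisa3 on the other strand, lay between 239.5 and 285 CPM in all libraries.

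The transmitter genes Th and Trh had the smallest ratio of homozygous replicates 2, 5 and 8 to the other libraries. Th had 3.48, 3.89, 2.34, 3.00, 6.80, 2.37, 2.02 and 7.73 CPM in homozygous replicates 1 to 8. It had 2.12, 2.16, 2.25, 1.88, 2.79 and 2.84 CPM in heterozygous and 2.66, 3.05, 4.77, 2.27, 2.13 and 2.26 CPM in wild-type replicates 1 to 6. Only homozygous replicates 5 and 8 lay above every wild-type library.

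Trh had 1.95, 1.99, 0.981, 0.895, 3.44, 1.13, 1.11 and 4.18 CPM in homozygous replicates 1 to 8. It had 1.14, 0.706, 1.07, 1.15, 1.48 and 1.16 CPM in heterozygous and 0.970, 1.72, 2.85, 1.28, 0.712 and 0.613 CPM in wild-type replicates 1 to 6. Homozygous replicate 1 and wild-type replicate 3, which were low in Tbx21, were among the 5 highest libraries for both Th and Trh.

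The height of homozygous replicates 2, 5 and 8 over the other libraries differed widely between genes. These 3 libraries had 20.04 to 48.4 times the median of the other 17 for Eomes, 11.6 to 20.2 times for Tbx21 and 6.25 to 12.2 times for Cdhr1. The ratios were 3.34 to 7.82 for Shisa3, 3.08 to 5.65 for Doc2g, 1.75 to 3.69 for Trh and 1.66 to 3.30 for Th. By ratio the T-box factors thus stood out most and the transmitter genes least. Those ratios depend on the median of the 17, which was 0.178 CPM for Eomes and 0.166 for Tbx21, against 3.04 for Cdhr1 and 4.21 for Doc2g. By CPM the order differed. Over the heterozygous median, homozygous replicate 8 had an excess of 33.4 CPM for Cdhr1, 19.9 for Doc2g, 8.46 for Eomes and 5.52 for Th. That excess was 3.91 CPM for Shisa3, 3.22 for Tbx21 and 3.04 for Trh. In bulk tissue, more cells of a type and more RNA per cell cannot be told apart.

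Per kilobase of exon, Doc2g and Cdhr1 were the most abundant of the 7 in homozygous libraries and Shisa3 the least. Doc2g was divided by all its exon bases, of which 63.5% are shared with Nudt8 in GENCODE M21, so its place in this order is uncertain. Doc2g had 3.14 ± 2.58 CPM per kb in homozygous, 1.33 ± 0.193 in heterozygous and 1.74 ± 0.528 in wild-type libraries (SD, n = 8, 6 and 6). On the same scale and with the same n, Cdhr1 had 3.08 ± 3.28, 0.907 ± 0.285 and 1.15 ± 0.660, and Th had 1.67 ± 0.909, 0.990 ± 0.164 and 1.21 ± 0.421. Homozygous means lay above the others and had the widest SDs. Trh followed with 1.41 ± 0.890 CPM per kb in homozygous, 0.806 ± 0.178 in heterozygous and 0.980 ± 0.603 in wild-type libraries. Eomes had 0.619 ± 0.821, 0.0487 ± 0.0496 and 0.184 ± 0.191 CPM per kb, Tbx21 0.475 ± 0.563, 0.0610 ± 0.0423 and 0.131 ± 0.119, and Shisa3 0.333 ± 0.330, 0.107 ± 0.0430 and 0.159 ± 0.0884, in the same order of genotypes. Neighbours in the homozygous order differed by less than the larger of their SDs. In heterozygous libraries Eomes was the least abundant per kilobase, and Th lay above Cdhr1.

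The first comparison asked whether 2 copies of the Q331K allele go with another level of these genes than none. By edgeR's quasi-likelihood test with Benjamini-Hochberg adjustment over 16690 genes, 0 of the 7 genes passed an adjusted p of 0.05 in homozygous against wild-type libraries, where 1.56% of all genes were called. At an unadjusted p under 0.05 there were 2 of 7, Tbx21 and Cdhr1, and 16.1% of all genes. DESeq2 and limma voom with quality weights also called 0 of 7, where they called 3.69% and 1.8% of all genes. At an unadjusted p under 0.05 DESeq2 had 3 of 7 and 13.5% of all genes, and limma voom 0 of 7 and 16.1%.

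All 7 estimates of homozygous against wild-type libraries lay above 0, with a median log2 change of 1.05 beside 0.0013 over all genes. Tbx21 had a log2 change of 1.84 (SE 0.831, adjusted p = 0.283, edgeR), Eomes 1.72 (SE 1.05, adjusted p = 0.455) and Cdhr1 1.41 (SE 0.657, adjusted p = 0.302). The estimates were 1.05 (SE 0.574) for Shisa3, 0.85 (SE 0.432) for Doc2g, 0.52 (SE 0.393) for Trh and 0.46 (SE 0.294) for Th. limma voom, which weights libraries by their quality, gave 0.28 for Eomes, 1.20 for Tbx21, 0.78 for Cdhr1 and 0.53 for Doc2g. Its weights were 0.651, 1.55 and 1.01 for homozygous replicates 2, 5 and 8, and that of replicate 5 was the largest of all libraries. Without homozygous replicates 2, 5 and 8 all 7 estimates lay below 0. Then the log2 change was -0.60 (SE 0.573) for Tbx21, -1.30 (SE 1.01) for Eomes and -0.43 (SE 0.416) for Cdhr1, and the median was -0.42. Again 0 of 7 passed, where 79 of all 16685 genes tested were called. Those 3 libraries were picked as the highest of their group in these same genes and the high wild-type libraries were kept, so the choice itself lowers the estimates, and the turn below 0 is no sign of lower levels in homozygotes.

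**Figure D2:**
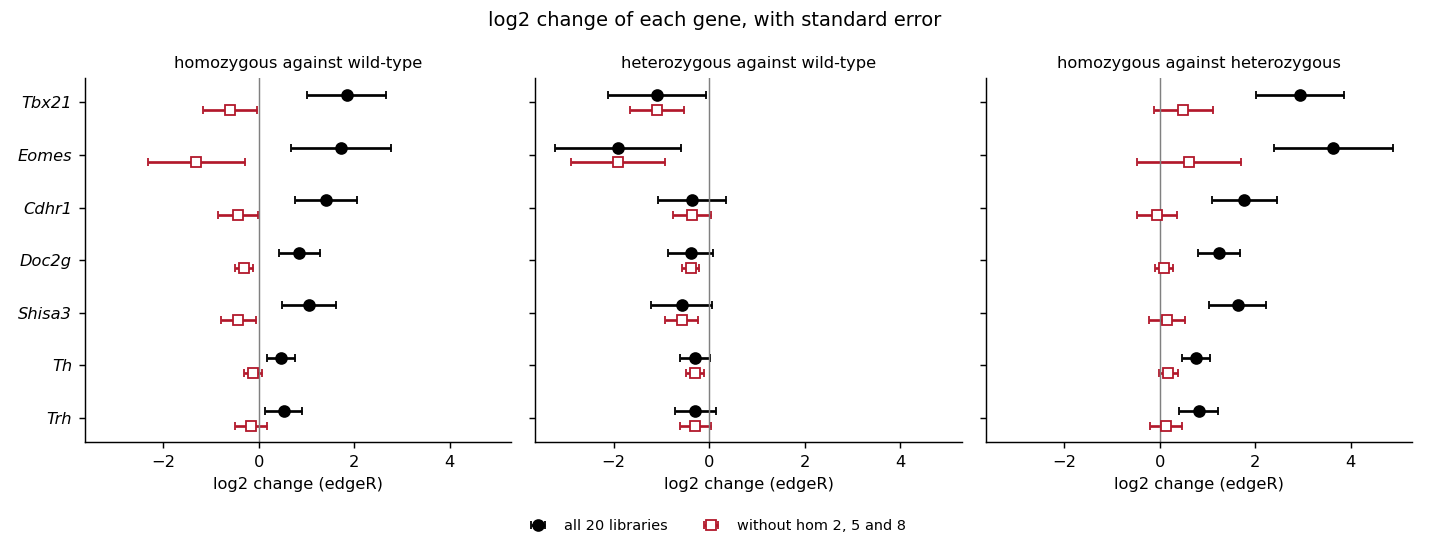
log2 change (horizontal axis) of each gene by edgeR in homozygous against wild-type, heterozygous against wild-type and homozygous against heterozygous libraries, with its standard error. Filled circles use all 20 libraries and open squares leave out homozygous replicates 2, 5 and 8. Against wild type the Tbx21 estimate is 1.84 with all libraries and -0.60 without those 3.

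Between heterozygous and wild-type libraries edgeR called no gene of the table, and DESeq2 called 2. By edgeR 0 of the 7 genes passed, where 0% of all genes were called, and 0 of 7 had an unadjusted p under 0.05, beside 3.19% of all genes. DESeq2 and limma voom called 0 of 7 as well, beside 0.00931% and 0% of all genes, and each had 0 of 7 at an unadjusted p under 0.05, beside 2.89% and 4.91%. The 7 estimates lay below 0, from -1.91 (SE 1.33) for Eomes and -1.09 (SE 1.02) for Tbx21 to -0.30 (SE 0.319) for Th and -0.29 (SE 0.429) for Trh, and their median was -0.39. The wild-type libraries above 1 CPM of Eomes, replicates 2, 3 and 4, are the libraries with the highest Cdhr1 and Doc2g of that group too. Without wild-type replicate 3, the Trh estimate was 0.07.

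Homozygous against heterozygous libraries gave the largest estimates, and again 0 of 7 passed by edgeR, where 0.108% of all genes were called. At an unadjusted p under 0.05 there were 6 of 7, all but Trh, beside 11% of all genes. DESeq2 called 1 of 7, Tbx21, at a log2 change of 2.96 (adjusted p = 0.0436, DESeq2), beside 0.575% of all genes, and limma voom called 0, beside 0.138%. At an unadjusted p under 0.05 DESeq2 had 7 of 7 and 9.34% of all genes, and limma voom 3 of 7 and 12.3%. Over the alternatives with every library kept, the adjusted p of Tbx21 ran from 0.0436 to 0.370.

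In that comparison Eomes had a log2 change of 3.63 (SE 1.25, adjusted p = 0.320, edgeR), Tbx21 2.93 (SE 0.924, adjusted p = 0.293) and Cdhr1 1.77 (SE 0.675, adjusted p = 0.366). Shisa3 had 1.63 (SE 0.600), Doc2g 1.24 (SE 0.443), Trh 0.81 (SE 0.402) and Th 0.76 (SE 0.300). limma voom gave 1.96 for Eomes and 1.18 for Cdhr1. The median by edgeR was 1.63, and 0.15 without homozygous replicates 2, 5 and 8. Without them the estimates ran from -0.07 for Cdhr1 to 0.61 for Eomes, and 0 of 7 passed, where 2 of all 16685 genes tested were called. The 3 comparisons share their libraries, so these values are not independent of each other.

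The 7 genes ranked high in their spread within genotypes. The SD of log2 CPM within genotypes, pooled over the 3 groups, was 2.36 for Eomes, the 12th largest of 16690 genes, and 1.53 for Tbx21, the 40th. It was 1.20 for Cdhr1 (rank 77), 1.05 for Shisa3 (rank 115), 0.766 for Doc2g (rank 312), 0.718 for Trh (rank 374) and 0.528 for Th (rank 932), beside a median of 0.102 over all genes. These ranks are over genes of every level, not genes of like level. Counting error widens the SD at low counts, and Eomes and Tbx21 had as few as 0 and 3 counts in a library. The spread was not confined to homozygous libraries. For Eomes the SD was 3.01 in homozygous, 1.17 in heterozygous and 2.23 in wild-type libraries, and for Cdhr1 it was 1.67, 0.444 and 0.881 in the same order.

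The genes moved together across libraries. As a description, with values of a library sharing its depth and scaling, the 21 pairs of genes had a median Pearson r of log2 CPM of 0.859 over 20 libraries (0.662 to 0.959) and a median Spearman rho of 0.675. Doc2g and Cdhr1 were the closest pair, with r = 0.959, and Th and Shisa3 the least close, with r = 0.662. Without homozygous replicates 2, 5 and 8 the median r over the 17 other libraries was 0.563 (-0.0790 to 0.828). Doc2g and Cdhr1 then had r = 0.828, Eomes and Cdhr1 0.814 and Eomes and Trh 0.764, while Tbx21 and Th had 0.141 and Th and Shisa3 -0.0790. Outside the 3 high libraries, Eomes and Cdhr1 thus went with both Th and Trh more closely than Tbx21 or Shisa3 did.

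**Figure D3:**
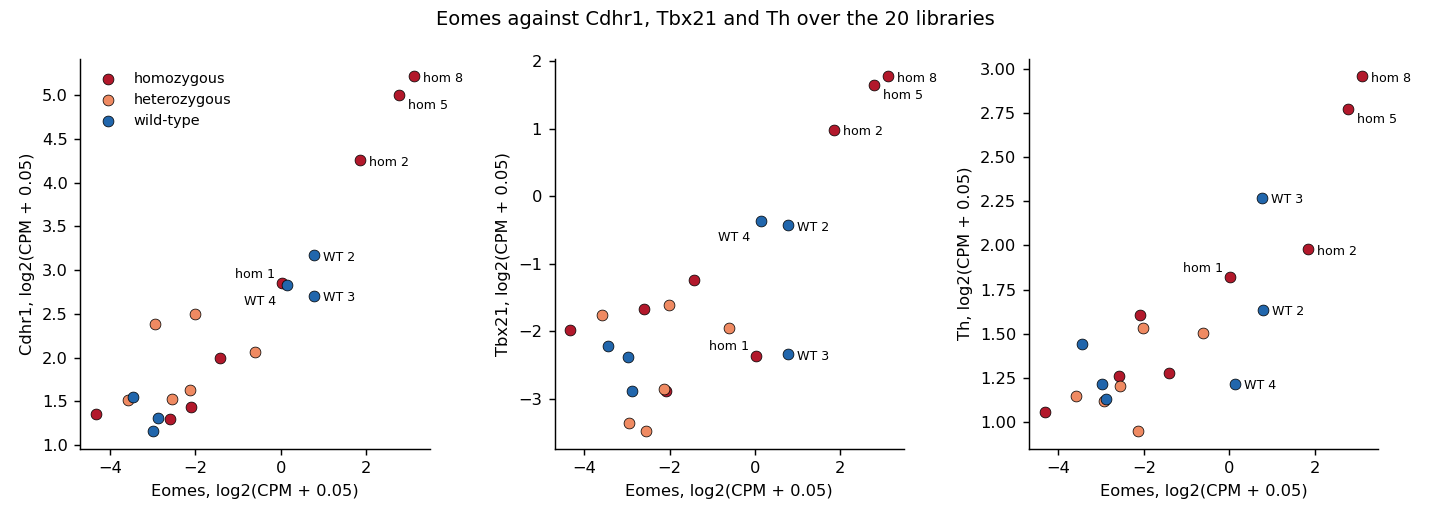
Cdhr1, Tbx21 and Th (vertical axes) against Eomes (horizontal axis), all as log2(CPM + 0.05), with 1 point per library. Homozygous 2, 5 and 8 lie at the upper right in each panel. Wild-type 3 and homozygous 1 lie low in Tbx21 (0.148 and 0.145 CPM) and high in Th (4.77 and 3.48 CPM).

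The 7 libraries with the most Eomes did not hold the genes in the same proportions. Tbx21 made up 35.1% of the summed Tbx21 and Eomes counts in homozygous replicate 2 (95% exact Clopper-Pearson interval 30.9% to 39.5%, 487 counts), 31.2% in replicate 5 (28.1% to 34.5%, 830 counts) and 28.1% in replicate 8 (25.4% to 31.0%, 1032 counts). It made up 29.3% in wild-type replicate 2 (23.5% to 35.6%, 232 counts) and 40.7% in wild-type replicate 4 (32.6% to 49.2%, 145 counts). The share was 13.0% in homozygous replicate 1 (6.93% to 21.7%, 92 counts) and 8.19% in wild-type replicate 3 (4.55% to 13.4%, 171 counts). The intervals cover counting error only, since reads without molecular identifiers are not independent molecules. The intervals of the last pair of libraries do not reach those of the other 5, and the pair holds 1 homozygous and 1 wild-type library.

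**Figure D4:**
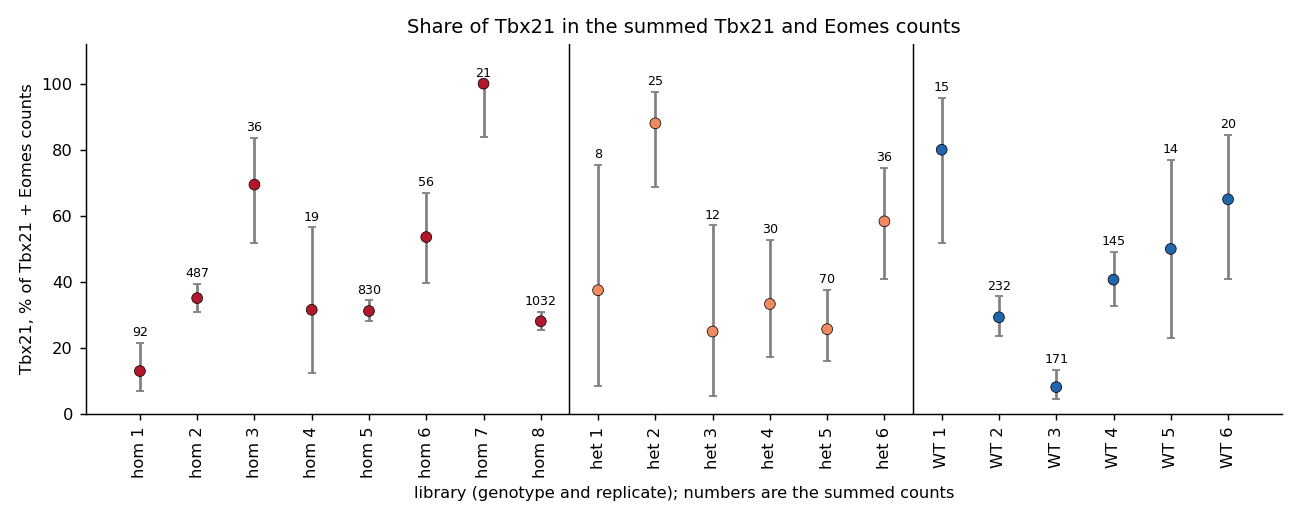
Tbx21 as a percentage of the summed Tbx21 and Eomes counts (vertical axis) in each library (horizontal axis), with exact 95% intervals and the summed count above each. Homozygous 2, 5 and 8 lie between 28.1% and 35.1%, and wild-type 3 lies at 8.19%.

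The same libraries parted by Th and Trh. Over the median of the heterozygous libraries, which was 0.149 CPM for Eomes, 2.21 CPM for Th and 1.14 CPM for Trh, each library's excess of a gene was divided by its excess of Eomes. For Th that ratio was 0.493, 0.689 and 0.653 in homozygous replicates 2, 5 and 8 and 0.557 and 0.0706 in wild-type replicates 2 and 4, but 1.56 in homozygous replicate 1 and 1.70 in wild-type replicate 3. For Trh the ratio was 0.247, 0.344 and 0.359 in homozygous replicates 2, 5 and 8 and 0.380 and 0.147 in wild-type replicates 2 and 4, against 0.982 in homozygous replicate 1 and 1.13 in wild-type replicate 3. Homozygous replicate 1 and wild-type replicate 3 thus held more Th and Trh and less Tbx21 for their Eomes than the other 5.

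Cdhr1 and Doc2g varied less against Eomes. Its ratio was 4.52, 4.25 and 3.95 in homozygous replicates 2, 5 and 8, 4.36 in homozygous replicate 1, 3.52 and 3.80 in wild-type replicates 2 and 4, and 1.92 in wild-type replicate 3. For Doc2g it was 2.66, 2.13, 2.35 and 2.21 in homozygous replicates 2, 5, 8 and 1, and 2.39, 2.75 and 1.46 in wild-type replicates 2, 4 and 3. The ratios have no replicate error, and they were described after the libraries' values were seen.

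Other genes known from the bulb moved in part with the 7. A list of mitral and tufted cell genes held 15, of which 12 were tested, and 5 of these are genes already described. None passed in homozygous against wild-type libraries by edgeR. At an unadjusted p under 0.05 there were 4 of 12, of which Tbx21 and Cdhr1 are already described, beside 16.1% of all genes, and the median log2 change of the other 7 was 0.20, and -0.0039 without homozygous replicates 2, 5 and 8. The most abundant of them, Reln, the secreted protein reelin, which cortical neurons make too, averaged 88.0 ± 15.3 CPM in homozygous libraries (SD, n = 8) and 72.9 ± 5.42 CPM in wild-type libraries (SD, n = 6), at a log2 change of 0.27 (SE 0.0884, adjusted p = 0.130, edgeR). Kcng1, a potassium channel subunit, had 0.01 (SE 0.110), Slc17a6, the vesicular glutamate transporter of subcortical neurons and mitral cells, 0.09 (SE 0.0756), and Ntng1, a netrin-related membrane protein, 0.16 (SE 0.0879). The summed level of the whole list, the described genes included, was 188 to 275 CPM in homozygous replicates 2, 5 and 8, 141 to 161 CPM in the other homozygous libraries, 138 to 158 CPM in heterozygous and 127 to 167 CPM in wild-type libraries. The 5 described genes are part of that sum. Its gap between libraries is partly theirs and does not show that the rest of the list moved.

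A list of granule and periglomerular cell genes held 13, all tested, among them Th and Trh. Pax6, a transcription factor of periglomerular cells and also of astrocytes, rose in homozygous libraries, with 10.4 ± 0.725 CPM (SD, n = 8) against 8.40 ± 0.979 CPM in wild-type libraries (SD, n = 6), a log2 change of 0.31 (SE 0.0681, adjusted p = 0.0188, edgeR). Without homozygous replicates 2, 5 and 8 it did not pass, at 0.26 (SE 0.0766, adjusted p = 0.126). None of the others passed, and at an unadjusted p under 0.05 there were 5 of 13 (16.1% of all genes), with 12 of 13 estimates above 0. In homozygous against heterozygous libraries 0 of the list passed by edgeR, and 7 of 13 had an unadjusted p under 0.05 (11% of all genes). The 4 most abundant were Meis2, a homeobox factor, at a log2 change of 0.03 (SE 0.0533), Calb1, a calcium-binding protein, at -0.02 (SE 0.0519), Synpr, a synaptic vesicle protein, at 0.10 (SE 0.0848), and Etv1, an ETS factor, at 0.01 (SE 0.0635), all against wild type.

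Calb2, the calcium-binding protein calretinin of granule and periglomerular cells and also of cortical interneurons, had the closest likeness to the 7 genes within that list, and it was chosen after its values were seen. It had 24.7, 34.4 and 33.8 CPM in homozygous replicates 2, 5 and 8, 13.7 CPM in replicate 1 and 9.60 to 10.95 CPM in the other 4. It had 7.44 to 11.4 CPM in heterozygous libraries and 9.99, 15.6, 14.4, 12.3, 8.60 and 7.81 CPM in wild-type replicates 1 to 6. Wild-type replicates 2, 3 and 4 were again the high ones of their group. Over 20 libraries its r with the mean z score of the 7 genes was 0.97, and it was 0.89 over the 17 without those 3.

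The levels of sensory axon and glial genes of the olfactory pathway overlapped between all groups. A list of 8 genes of olfactory sensory axons and ensheathing glia had 0 called in homozygous against wild-type libraries by edgeR (2 of 8 at an unadjusted p under 0.05, beside 16.1% of all genes), and a median log2 change of -0.02, and -0.30 without homozygous replicates 2, 5 and 8. Its summed level was 45.6 to 48.8 CPM in homozygous replicates 2, 5 and 8, 38.9 to 47.0 CPM in the other homozygous libraries, 40.3 to 49.1 CPM in heterozygous and 40.7 to 49.6 CPM in wild-type libraries. The ranges overlapped throughout. Most of that sum came from Frzb and Gng13, which averaged 23.2 and 17.6 CPM in homozygous libraries, so it says little about the less abundant genes. Against wild type the 8 estimates were mixed, with 4 above 0. Omp, the olfactory marker protein that defines mature sensory neurons, averaged 1.03 CPM over all libraries, with a log2 change of -0.46 (SE 0.663) against wild type.

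By edgeR the partners of Th and Trh in their pathways were called in neither direction. Of 14 genes of catecholamine synthesis and transport 13 were tested, and 0 passed in homozygous against wild-type libraries by edgeR. Of the 13, 4 had an unadjusted p under 0.05, beside 16.1% of all genes. Their median log2 change was 0.10. Qdpr, which recycles the cofactor of Th, had -0.09 (SE 0.0672), and the monoamine oxidases Maoa and Maob 0.10 (SE 0.0366) and 0.01 (SE 0.0359). Of midbrain dopamine neuron genes 4 of 6 were tested, 0 passed and 2 of the 4 had an unadjusted p under 0.05 (16.1% of all genes). Pitx3 and En1 were below the filter, and the dopamine transporter Slc6a3 averaged 0.142 CPM. Against wild type 3 of the 4 estimates lay above 0, with a median of 0.51, and 0.31 without homozygous replicates 2, 5 and 8. Summed, the 4 genes had 4.69 to 5.41 CPM in those 3 libraries and 3.08 to 4.49 CPM in the 17 others. Of 9 genes of the thyrotropin-releasing hormone pathway 0 passed, 1 of 9 had an unadjusted p under 0.05 (16.1% of all genes) and the median was 0.03, and the prohormone enzymes Cpe, Pcsk2 and Pam and the degrading enzyme Trhde lay between -0.03 and 0.04. Tbr1, the other T-box gene of the forebrain and a factor of deep cortical layers, averaged 174 CPM and had a log2 change of 0.02 (SE 0.0496).

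**Figure D5:**
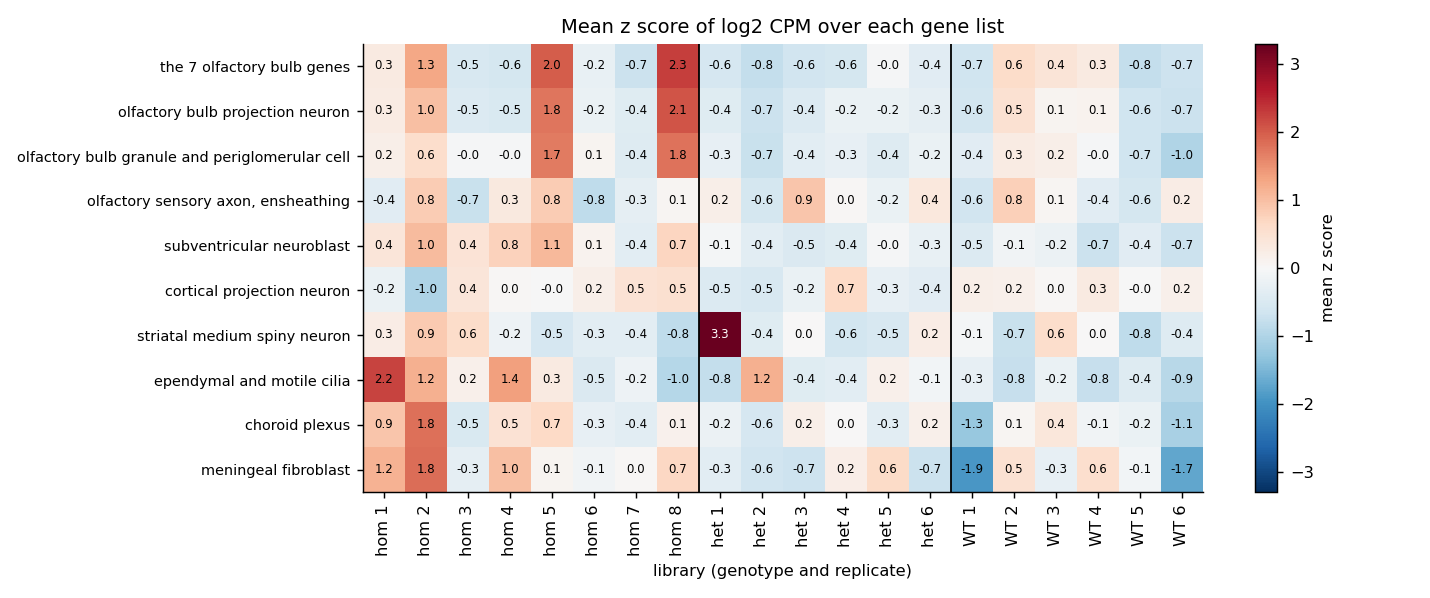
Mean z score of log2 CPM over each gene list (rows) in each library (columns), with red above and blue below the mean of all libraries. The 7 olfactory bulb genes reach 2.3 in homozygous 8, and heterozygous 1 reaches 3.3 in the striatal list. The 2 bulb lists below the first row hold 5 and 2 of the 7 genes.

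Markers of other tissue next to the frontal cortex were set beside the 7 genes. A fit with the ependymal score as a covariate is given in the last section, and the part of these markers in the results was otherwise not tested. The summed level of 10 ependymal and motile cilia genes was 10.6 to 20.9 CPM in homozygous replicates 2, 5 and 8, 10.5 to 29.4 CPM in the other homozygous libraries, 10.6 to 20.5 CPM in heterozygous and 9.99 to 11.7 CPM in wild-type libraries. All 10 estimates against wild type lay above 0, with a median log2 change of 0.53, and 0.64 without homozygous replicates 2, 5 and 8. An unadjusted p under 0.05 was reached by 8 of 10, beside 16.1% of all genes. Of these genes Rsph1, a radial spoke protein, rose in homozygous against wild-type libraries, by 0.39 (SE 0.0973, adjusted p = 0.0416, edgeR), and did not pass without the 3 libraries, at 0.38 (adjusted p = 0.126). Homozygous replicate 1, not 2, 5 or 8, held the highest ependymal score, at 2.23, and homozygous replicate 8, with the most Eomes, the lowest, at -0.95.

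Of 10 subventricular neuroblast genes Sox4, a factor of immature neurons, rose in homozygous libraries, with 20.5 ± 2.19 CPM (SD, n = 8) against 16.1 ± 1.11 CPM in wild-type libraries (SD, n = 6), by 0.35 (SE 0.0593, adjusted p = 0.00327, edgeR), and by 0.27 without the 3 libraries (adjusted p = 0.0387). Sox4 also rose in homozygous against heterozygous libraries, by 0.33 (adjusted p = 0.0239, edgeR), but not without the 3 libraries, at 0.25 (adjusted p = 0.153). Against wild type 9 of the 10 neuroblast estimates lay above 0, with a median of 0.18, and 5 of 10 had an unadjusted p under 0.05 (16.1% of all genes). Against heterozygotes 9 of 10 lay above 0, with a median of 0.22, and 5 of 10 had an unadjusted p under 0.05 (11% of all genes). The list's summed level was 174 to 181 CPM in homozygous replicates 2, 5 and 8, 147 to 183 CPM in the other homozygous libraries, 148 to 164 CPM in heterozygous and 144 to 157 CPM in wild-type libraries. Of 9 meningeal and 6 tested choroid plexus genes 0 passed in homozygous against wild-type libraries by edgeR. Of these, 4 of 9 and 1 of 6 had an unadjusted p under 0.05, beside 16.1% of all genes, and their median log2 changes were 0.31 and 0.55, with 9 of 9 and 6 of 6 above 0. Their summed levels were 100.1 to 144 and 7.02 to 11.8 CPM in homozygous replicates 2, 5 and 8, 89.9 to 127 and 3.86 to 7.04 CPM in the other homozygous libraries, 85.7 to 109.8 and 4.29 to 8.14 CPM in heterozygous and 61.7 to 115 and 3.02 to 7.12 CPM in wild-type libraries. The 10 cortical projection neuron genes had 0 called by edgeR, beside 1.56% of all genes. At an unadjusted p under 0.05 there was 1 of 10, beside 16.1%. Their median log2 change was 0.0027, and their summed level was 2220 to 2528 CPM in homozygous replicates 2, 5 and 8, against 2312 to 2482 CPM in the 17 others. The 10 striatal genes had 0 called by edgeR and 0 at an unadjusted p under 0.05, beside the same shares, and a median of 0.07.

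Over all these lists DESeq2 called a few genes that edgeR did not, at a share of 3.69% of all genes called by DESeq2 against wild type and 0.575% against heterozygotes. In homozygous against wild-type libraries these were Tshz1 of the granule cell list, Ak7 of the ependymal list and Col1a1 of the meningeal list, all higher, and Rtp1 of the sensory axon list, which was lower. In homozygous against heterozygous libraries they were Sp8 of the granule cell list, Slc18a2, the vesicular monoamine transporter, and Dlx1 of the neuroblast list, all higher, and Trhr2, a receptor of thyrotropin-releasing hormone, which was lower. limma voom called Pax6, Rsph1 and Sox4 against wild type and Sox4 against heterozygotes, and no other gene of the lists.

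Outside these lists, the genes whose levels were most like those of the 7 were named by Pearson r with their mean z score over 20 libraries, among genes with a mean of at least 1 CPM. Nudt8 led with r = 0.910, and in GENCODE M21 it shares exons with Doc2g. Frmd7, a FERM domain protein, followed with r = 0.898, Cacng5, an auxiliary subunit of AMPA receptors, with 0.893, and Fabp7, a fatty acid binding protein of glia, with 0.851. Map3k1, Pard3b, Fam196b, Ptpro, Cdh23 and Npr1 had r from 0.846 to 0.821. Frmd7 had 1.47 to 5.03 CPM in homozygous replicates 2, 5 and 8, against at most 1.05 CPM in the 17 others. Without those 3 libraries r was 0.498 for Nudt8, 0.524 for Frmd7, 0.696 for Pard3b and 0.0925 for Cdh23. None of the 10 was called in a comparison of genotypes by edgeR.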

How the data were processed

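Polyadenylated RNA of 20 frontal cortex libraries was sequenced, and the deposited values are whole-number read counts per gene that the authors did not normalize, as the values show. The build was GRCm38 and the tools HISAT2 2.0.5 and Trim Galore 0.4.3, per the submitters' processing notes. How reads were assigned to genes, and with which strand setting, is not given in the sources used here. A further 56 named rows lacked an identifier, took at most 0.0835% of any library and were kept. Library totals ran from 61282647 to 111440766 counts. Libraries of a genotype all differed, with a chi-square of at least 12.8 per degree of freedom over 58 pairs.

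Differences between genotypes were tested with edgeR 4.0.16 and R 4.3.3 (TMM, filterByExpr, robust quasi-likelihood fit), with the 20 libraries in 1 fit by genotype and Benjamini-Hochberg adjustment over 16690 genes. Genes were called at an adjusted p under 0.05. Levels are CPM with TMM factors, a list's score is the mean z score of its genes' log2 CPM (prior count 2), and exon lengths and overlaps come from GENCODE M21, matched for 24990 of 25909 identifiers (96.5%). Promoter windows come from RefSeq on GRCm38.p6, matched by symbol for 7 of 7 genes. The same code was tested on simulated counts. Named beside the 7 genes were up to 4 genes of highest mean CPM per list, any called gene, and the 10 genes most alike, and some single genes of the lists are not reported here. The genes and lists were chosen with earlier results of these data known. Alternatives tried were edgeR with DESeq2's size factors, DESeq2 1.42.0 itself, other filters, limma 3.58.1 voom with quality weights, the replicate number as a block, fits of the compared genotypes alone, an ependymal covariate, and each library left out. Leaving out homozygous replicates 2, 5 and 8 together was added after seeing the data.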

Additional observations from a re-analysis of the deposited data

Results flagged for a closer look

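Among the 7 genes in the 3 genotypes, 21 groups of libraries were examined for a library far from the rest of its group, and 2 held one, where chance gives about 1 in 20. That rate is a rough guide only, because the genes moved together in the same libraries and the groups are not independent. No homozygous group was flagged, although several of its libraries stand apart. Eomes had 0.604 CPM in heterozygous replicate 5, while the next heterozygous library had 0.198 CPM. Th had 4.77 CPM in wild-type replicate 3, while the next wild-type library had 3.05 CPM.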

How the results depend on the processing

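Of the alternatives with all libraries kept, the filter of 1 CPM in 6 libraries tested only 5 of the 7 genes, and the others tested all 7. Over these alternatives, 161 of the 162 log2 changes of the 7 genes kept their direction and their side of the threshold. The exception was Tbx21 in homozygous against heterozygous libraries, which DESeq2 called, at 2.96 (adjusted p = 0.0436), so that DESeq2 called 1 of the 7 genes there. The sizes moved more. In homozygous against wild-type libraries they ran from 0.28 (limma voom) to 2.15 for Eomes (0.85 with the replicate block), 1.09 to 2.31 for Tbx21, 0.76 to 1.77 for Cdhr1, 0.42 to 1.13 for Doc2g and 0.55 to 1.56 for Shisa3, and in homozygous against heterozygous libraries from 1.96 to 3.78 for Eomes and 1.09 to 1.92 for Cdhr1. The 3 comparisons, homozygous against wild-type, heterozygous against wild-type and homozygous against heterozygous, called 261, 0 and 18 genes over the whole table by edgeR, and 639, 2 and 102 by DESeq2. With the ependymal score as a covariate the first and the last called 408 and 69 genes, and each called 0 of the 7. Without a filter on low counts the last called 11. Same-numbered libraries did not deviate together (18 pairs, median r 0.0444, range -0.104 to 0.139, 7 of 36 best matches with their own number), and with the replicate block the 3 comparisons called 387, 0 and 16 genes and 0 of the 7. With each library left out in turn, 419 of 420 log2 changes kept direction and call, all but Trh in heterozygous against wild-type libraries, at 0.071 without wild-type replicate 3 (range -0.44 to 0.071). Leaving out 1 library gave 115 to 314 calls over all genes in homozygous against wild-type libraries, where wild-type replicates 1, 3, 5 and 6 and homozygous replicate 5 each moved the count over 1.5 times (139, 148, 122, 115 and 147). It gave 5 to 31 in homozygous against heterozygous libraries, with 29 without wild-type replicate 6, 5, 10 and 7 without heterozygous replicates 2, 3 and 6, and 5, 31, 11 and 5 without homozygous replicates 1, 2, 6 and 8. The median r between the 7 genes was then 0.805 to 0.879.

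Without homozygous replicates 2, 5 and 8, chosen after seeing the data, 79 genes were called in homozygous against wild-type libraries and 2 in homozygous against heterozygous libraries. The estimates turned below 0 against wild type for Doc2g (-0.30), Tbx21 (-0.60), Eomes (-1.30), Cdhr1 (-0.43), Th (-0.12), Trh (-0.17) and Shisa3 (-0.42), and against heterozygotes for Cdhr1 (-0.066), and the median r was 0.563. Fewer libraries alone change the number of calls. Depth limits Eomes and Tbx21 most, which had as few as 0 and 3 counts in a library.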
